A study of Mus musculus with 20 samples.

Results

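The 9 genes described here encode proteins of autophagy and of its mitochondrial form, mitophagy, that are used during red cell maturation. They are Bnip3l, Bnip3, Ulk1, Map1lc3b, Gabarapl1, Gabarapl2, Sqstm1, Becn1 and Foxo3. They were chosen by name, with earlier results of these data known, and each is 1 of the 24315 genes in the 2 expression tables. Levels are in FPKM (fragments mapped, scaled to transcript length and library size). Of the 24315 genes, 11952 in LSK cells and 10933 in MEP cells had a mean of at least 1 FPKM and were tested. All 9 passed this filter in both cell types.

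Autophagy encloses cytoplasm in a double membrane that fuses with the lysosome. The ULK1 kinase starts the process, the Beclin 1 complex makes the lipid on which the membrane grows, and proteins of the ATG8 family (LC3 and GABARAP proteins) are joined to the membrane and bind receptors that carry the cargo. Maturing red cells remove their mitochondria in this way through the receptor NIX, the product of Bnip3l, and FOXO3 is known as a transcription factor that promotes autophagy gene expression in erythroid cells.

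The study asked how loss of the corepressor Bcor and of the DNA methyltransferase Dnmt3a, alone and together, changes blood progenitors of C57BL/6 mice. Bone marrow cells were sorted as LSK (lineage-negative, Sca1+, Kit+), which hold stem and early progenitor cells, and as MEP (megakaryocyte-erythroid progenitors), which are Kit+ without Sca1. There were 20 polyA RNA-seq libraries from 10 mice, 1 of each cell type per mouse: 3 wild-type mice (WT), 2 that lacked Bcor (Bcor-/-), 3 labelled as lacking Dnmt3a (Dnmt3a-/-) and 2 labelled as lacking both (Bcor-/-Dnmt3a-/-, the double knockout). By the study's text, Mx1-Cre removed Dnmt3a incompletely in the Dnmt3a-/- mice, which limits that group as a model of its loss. The single and double knockouts carried Mx1-Cre, a Cre driven by an interferon-inducible promoter and switched on with pIpC, so that deletion was induced in many tissues of the mouse, and the controls were mice whose genes were not targeted. The double knockout mice compared with WT were leukemic (acute erythroid leukemia) by the study's text, the labels give neither age nor disease stage, and genotype and leukemia therefore cannot be told apart in these mice. One Bcor-/- library of each cell type is labelled with 2 mouse numbers and was counted as 1 replicate.

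The libraries summed to between 413482 and 522688 FPKM in LSK and between 424662 and 625758 in MEP. Read counts were not used here, so the depth behind a value is unknown. Replicates of the other genotypes correlated at r of 0.97 to 0.99 across tested genes, and the pair of double knockout libraries at 0.85 in LSK and 0.82 in MEP. In double knockout MEP replicate 2, the 10 most abundant genes held 19.4% of all FPKM, and Kit, which defines both gates, was at 47.7 and 19.4 FPKM in double knockout LSK against 148 to 174 in WT LSK, whereas Ly6a, which encodes Sca1, was at 63.5 and 220 against 59.8 to 70.7. Of the 8 stem and progenitor gate genes, 3 were called higher and 3 lower there (2 and 3 by the adjusted p), where 15.0% and 13.3% of all tested genes were called by the unadjusted p. Bcor was at 29.5 to 32.4 FPKM in WT LSK, 22.4 and 23.2 in Bcor-/- LSK, and 24.0 and 37.4 in double knockout LSK. MEP values were 21.3 to 26.9 in WT, 19.5 and 22.4 in Bcor-/- mice, and 19.6 and 26.7 in the double knockout. The study deleted internal exons, and gene-level FPKM do not show which exons the fragments came from. Dnmt3a was at 16.1 to 19.8 FPKM in WT LSK, 11.3 to 16.9 in Dnmt3a-/- LSK, and 10.4 and 10.9 in double knockout LSK, with Dnmt3a-/- LSK replicate 1 (16.9) inside the WT range. The MEP values of Dnmt3a were 5.49 to 6.64 FPKM in WT, 2.56 to 5.40 in Dnmt3a-/- mice, and 6.85 and 3.44 in the double knockout. The library labelled double knockout MEP replicate 1 was thus above every WT library, and its gene-level Dnmt3a value goes against its label. Bcor in double knockout LSK replicate 2 was likewise above the WT range, and in Bcor-/- MEP replicate 2 and double knockout MEP replicate 2 it lay inside it. For Dnmt3a as for Bcor, the values do not show which exons the fragments came from. In LSK, double knockout replicate 1, from the same mouse, was at 10.4 FPKM of Dnmt3a, below the WT range. The study reports complete Dnmt3a loss in leukemic double knockout mice and incomplete loss before leukemia. All libraries are called by their labels here.

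The promoter sequences of 3 members are shown because their calls in the double knockout against WT differed. Bnip3 was not called in either compartment, whereas Map1lc3b and Gabarapl2 were called higher in MEP. The Map1lc3b value was under the fold threshold without double knockout replicate 2 (0.45), and a difference between the genes was not tested. Each line gives the bases before the gene's RefSeq start (GRCm38.p6), read 5′ to 3′ on the gene's strand, without those inside GENCODE exons. That left 237 of 250 bases for Bnip3, 173 for Map1lc3b and all 250 for Gabarapl2. The motif and CG counts below used all 250. The lines lie at chr7:138909520-138909756 (minus) for Bnip3, chr8:121590188-121590360 (plus) for Map1lc3b and chr8:111940453-111940702 (plus) for Gabarapl2, with a CACGTG E-box in capitals.
Bnip3: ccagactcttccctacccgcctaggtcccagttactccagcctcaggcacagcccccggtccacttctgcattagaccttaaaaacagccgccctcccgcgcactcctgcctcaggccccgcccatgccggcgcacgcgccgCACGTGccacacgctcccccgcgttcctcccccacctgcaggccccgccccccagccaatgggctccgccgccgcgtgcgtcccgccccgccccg
Map1lc3b: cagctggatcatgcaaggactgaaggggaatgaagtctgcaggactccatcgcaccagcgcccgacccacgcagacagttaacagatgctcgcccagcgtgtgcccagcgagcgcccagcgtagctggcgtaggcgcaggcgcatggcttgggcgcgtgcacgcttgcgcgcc
Gabarapl2: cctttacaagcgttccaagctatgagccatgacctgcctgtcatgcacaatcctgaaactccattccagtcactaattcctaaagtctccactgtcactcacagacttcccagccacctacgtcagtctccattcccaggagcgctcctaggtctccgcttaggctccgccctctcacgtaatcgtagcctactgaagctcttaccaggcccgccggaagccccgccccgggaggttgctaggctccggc
A RefSeq promoter was matched for 7 of the 9 members, and not for Bnip3l and Becn1. In the 250 bases before each start, on both strands and with motifs allowed to overlap, Bnip3 held the only match, 1 CACGTG, a motif found in 6.02% of 32851 promoters. None of the 7 held a GATA motif (the letters AGATAA, with AGATAG as its second form, TGATAA as its next and TGATAG as its last, found in 26.5% of promoters), a FOXO motif (GTAAACA, 3.17%) or an antioxidant response motif (TGACNNNGC, 10.2%). CG dinucleotides numbered from 12 in Gabarapl1 and Gabarapl2 to 30 in Map1lc3b and 31 in Foxo3, with 24 in Bnip3, 20 in Ulk1 and 14 in Sqstm1. The windows thus shared none of these motifs. Their CG counts differed, but each was above that of at least 66.5% of promoters, and the Foxo3 count was above that of 94.8%. The whole Gabarapl1 window lay within annotated exons.

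In WT cells the members spanned about 1 order of magnitude in FPKM, a scale corrected for transcript length. In WT LSK the order of mean FPKM (± SD, n = 3) was Gabarapl1 at 122.9 ± 16.4, Sqstm1 at 91.3 ± 10.5, Map1lc3b at 84.6 ± 4.61, Becn1 at 63.6 ± 2.11, Bnip3l at 36.0 ± 3.04, Foxo3 at 28.5 ± 3.73, Ulk1 at 21.4 ± 2.90, Gabarapl2 at 11.7 ± 2.34 and Bnip3 at 9.18 ± 1.20. The ranges of Sqstm1 and Map1lc3b overlapped, as did those of Gabarapl2 and Bnip3, and no other neighbours in that order did. WT MEP had the same genes at both ends, Gabarapl1 at 75.9 ± 8.38 and Bnip3 at 4.53 ± 0.843 FPKM, and there Gabarapl1, Becn1 (73.4 ± 5.06) and Sqstm1 (71.1 ± 5.58) overlapped. The tables of the 2 cell types were normalized separately, so levels are set side by side here and not tested.

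**Figure D1:**
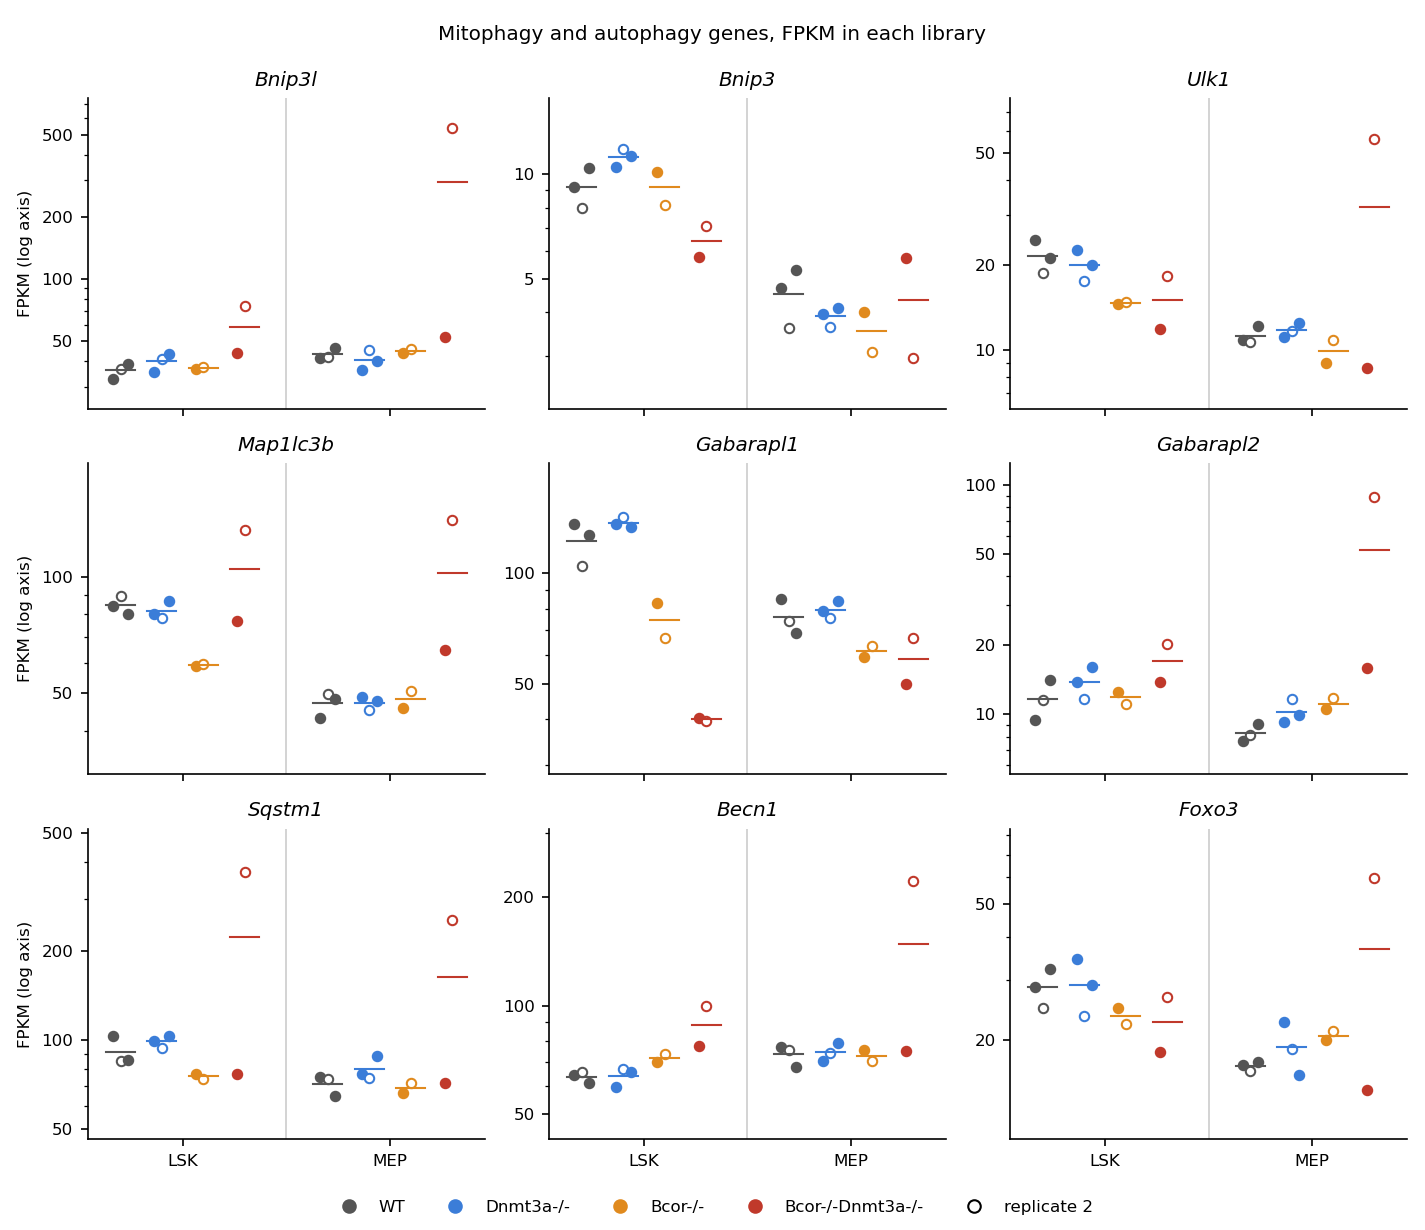
FPKM (log axis) of the 9 members in each library, 1 panel per gene, with LSK on the left and MEP on the right of each panel, colours for genotype, a dash at each group mean and open symbols for replicate 2 of each genotype. Gabarapl1 in LSK steps down from WT (105 to 137) to Bcor-/- (66.6 and 82.7) to the double knockout (39.6 and 40.2), whereas most other double knockout values part between the replicates, most of all Bnip3l in MEP (52.4 and 536).

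Each genotype was compared with limma on log2(FPKM + 1), and a gene was called where the unadjusted p was under 0.05 and the fold change above 1.5, the filter in the study's methods. Adjusted p-values are Benjamini-Hochberg values over all genes tested, and log2 fold changes are on the log2(FPKM + 1) scale and carry their standard error. Each p-value sets a difference against the spread between mice of a genotype, as 1 estimate shared by all genotypes. The double knockout pair correlated less well than other replicates, so this spread may be too small for it and too large for the rest. Where 1 of the pair of double knockout or Bcor-/- libraries is left out, the remaining one is assumed to vary like the other groups, which supply the spread, so that such a p holds no spread of its own group.

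The clearest change was in Gabarapl1, an ATG8 protein of the GABARAP branch (chr6:129533160-129542346, plus strand, GENCODE on GRCm38). In LSK it was at 137, 105 and 127 FPKM in WT libraries and at 136, 143 and 134 FPKM in those of Dnmt3a-/- mice, against 82.7 and 66.6 FPKM for Bcor-/- and 40.2 and 39.6 FPKM for Bcor-/-Dnmt3a-/-. Both Bcor-/- libraries lay below every WT and Dnmt3a-/- library, and both double knockout libraries lay below those. Gabarapl1 fell by 1.59 ± 0.14 on the log2 scale in double knockout LSK (3.01-fold lower, adjusted p = 8.71e-05) and by 0.71 ± 0.14 in Bcor-/- LSK (1.64-fold lower, adjusted p = 0.0242). The double knockout was also lower than Bcor-/- by 0.88 ± 0.15 (adjusted p = 0.00308), whereas Dnmt3a-/- and WT LSK could not be separated (log2 fold change 0.17 ± 0.12, adjusted p = 1). The order of mean LSK level was therefore Dnmt3a-/- and WT, then Bcor-/-, then the double knockout. In double knockout LSK the fall ranged from 1.51 to 1.75 over all alternatives, without either double knockout library among them, but the Bcor-/- change was 0.56 on the log2 scale, under the fold threshold, without Bcor-/- replicate 2 (value -0.56, adjusted p = 0.276).

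In MEP Gabarapl1 did not pass the fold threshold. It was at 85.1, 74.0 and 68.7 FPKM in WT, 58.9 and 63.4 in Bcor-/- mice, and 49.7 and 66.7 in the double knockout, with a log2 fold change of -0.39 ± 0.14 in the double knockout (adjusted p = 0.0675). Without double knockout replicate 2 the value was -0.60 and it was called (adjusted p = 0.00604). Both mutant pairs were below the WT range. The gene shares 570 exonic bases with 1700101I11Rik on the opposite strand, and whether counting used strand is not given in the sources used here, but that gene was at most 0.785 FPKM in LSK libraries and 1.67 in MEP libraries.

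Map1lc3b and Gabarapl2, the other ATG8 members, were higher in double knockout MEP and did not follow Gabarapl1. Gabarapl2 (chr8:111940703-111953612, plus strand) was at 7.67, 8.15 and 9.11 FPKM in WT MEP, 9.25, 11.6 and 9.95 in Dnmt3a-/- mice, 10.5 and 11.7 in Bcor-/- mice, and 15.9 and 88.8 in the double knockout. It rose by 2.07 ± 0.55 on the log2 scale (4.19-fold, adjusted p = 0.0218). Both double knockout libraries were above all others, yet they differed from each other by 5.33-fold on the FPKM + 1 scale. Without replicate 2 the log2 fold change was 0.86 and it was still called (adjusted p = 0.00327), and without replicate 1 it was 3.27. In LSK, where the double knockout was at 13.8 and 20.2 FPKM against 9.45 to 14.1 in WT, it was not called (log2 fold change 0.50 ± 0.21, adjusted p = 0.111).

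Map1lc3b, which encodes LC3B (chr8:121590361-121598760, plus strand), was at 43.2, 49.7 and 48.3 FPKM in WT MEP, 48.8, 45.3 and 47.7 in Dnmt3a-/- mice, 46.0 and 50.6 in Bcor-/- mice, and 64.8 and 141 in the double knockout. Again both double knockout libraries exceeded every other MEP library. Map1lc3b rose by 1.01 ± 0.26 on the log2 scale (2.01-fold, adjusted p = 0.0203), and without replicate 2 the value was 0.45, under the fold threshold (adjusted p = 0.00988), and without replicate 1 it was 1.56. It shares 58 exonic bases with Zcchc14 on the opposite strand, which was at most 1.10 FPKM in LSK and 0.948 in MEP. In LSK it went from 80.2 to 89.4 FPKM in WT to 58.8 and 59.5 in Bcor-/-, which lay below every WT library without passing the fold threshold (-0.51 ± 0.19, adjusted p = 0.14). The double knockout LSK libraries were at 76.9 and 132 FPKM, on either side of the WT range, and their log2 fold change turned from -0.14 without replicate 2 to 0.64 without replicate 1.

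Bnip3l, the mitophagy receptor NIX (chr14:66985239-67008877, minus strand), showed the widest split between the leukemic mice. In MEP it was at 41.2, 41.9 and 46.2 FPKM in WT, 36.1, 45.0 and 40.2 in Dnmt3a-/- mice, 43.7 and 45.6 in Bcor-/- mice, and 52.4 and 536 in the double knockout. Replicate 2 was 10.1-fold above replicate 1 on the FPKM + 1 scale, a difference above that of 99.1% of tested genes. Bnip3l was called higher in double knockout MEP by the unadjusted p of limma (log2 fold change 1.94 ± 0.74, adjusted p = 0.0759), but the value was 0.28 without replicate 2 (adjusted p = 0.11) and 3.61 without replicate 1 (adjusted p = 5.98e-07). The call also ended when any 1 WT library was left out, with values of 1.91, 1.92 and 1.99.

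In LSK Bnip3l was at 32.7, 36.6 and 38.7 FPKM in WT, 35.5, 41.1 and 43.2 in Dnmt3a-/- mice, 36.6 and 37.6 in Bcor-/- mice, and 43.7 and 73.7 in the double knockout. Both double knockout libraries were the highest of the 10. Bnip3l rose by 0.64 ± 0.20 (1.56-fold, adjusted p = 0.037), just above the fold threshold, and was not called without WT replicate 1 (0.58), without double knockout replicate 2 (0.27) or after quantile normalization (0.51).

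Bnip3, the other receptor of this pair and known as a hypoxia-induced gene (chr7:138890836-138909519, minus strand), did not move with Bnip3l. In LSK it was at 9.16, 7.99 and 10.4 FPKM in WT, 10.5, 11.8 and 11.2 in Dnmt3a-/- mice, 10.1 and 8.15 in Bcor-/- mice, and 5.76 and 7.07 in the double knockout. The double knockout libraries were the lowest, with a log2 fold change of -0.46 ± 0.16 against WT, under the fold threshold (adjusted p = 0.0589). Against Dnmt3a-/- LSK, where Bnip3 was highest, it fell by 0.72 ± 0.16 (adjusted p = 0.00864). In MEP the double knockout was at 5.75 and 2.95 FPKM, around the WT range of 3.61 to 5.28 (log2 fold change -0.09 ± 0.25, adjusted p = 0.811). The gene shares 504 exonic bases with the antisense gene Gm45507, whose level is not analysed here.

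Ulk1, the kinase that starts autophagy (chr5:110784488-110810097, minus strand), was at 18.7 to 24.5 FPKM in WT LSK, 14.5 and 14.8 in Bcor-/- and 11.8 and 18.3 in the double knockout. Both mutants lay below WT in LSK by a similar amount, -0.51 ± 0.19 in Bcor-/- (adjusted p = 0.137) and -0.50 ± 0.19 in the double knockout (adjusted p = 0.0802), and neither passed the fold threshold. In MEP it was at 10.6 to 12.2 FPKM in WT and at 8.61 and 55.8 in the double knockout, 1 library below and 1 far above all others, and the log2 fold change of 0.94 ± 0.58 (adjusted p = 0.237) was -0.34 without replicate 2.

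Becn1 encodes Beclin 1 (chr11:101285952-101302286, minus strand). In LSK it was at 61.3 to 65.4 FPKM in WT, 70.0 and 73.6 in Bcor-/- mice, and 77.5 and 99.8 in the double knockout. The double knockout libraries were above all others, with a log2 fold change of 0.46 ± 0.12 that was under the fold threshold (adjusted p = 0.0202). In MEP it was at 67.6 to 76.9 FPKM in WT and at 74.7 and 221 in the double knockout, so that replicate 1 stayed within the WT range (0.80 ± 0.36, adjusted p = 0.114). The gene shares 3104 exonic bases with Cntd1 on the opposite strand, which was at most 4.58 FPKM in LSK and 3.50 in MEP.

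Sqstm1, the receptor p62 that carries ubiquitinated cargo (chr11:50199366-50210827, minus strand), was at 84.8 to 103 FPKM in WT LSK and at 77.0 and 369 in the double knockout. In MEP it was at 64.7 to 74.9 FPKM in WT and at 71.3 and 255 in the double knockout. The second double knockout mouse was 4.75-fold above the first in LSK and 3.54-fold in MEP on the FPKM + 1 scale. The gene shares 580 exonic bases with Mrnip on the opposite strand, listed as 3010026O09Rik, which was at most 13.0 FPKM in LSK and 14.2 in MEP. Neither comparison was called (LSK 0.89 ± 0.50, adjusted p = 0.211, and MEP 0.92 ± 0.42, adjusted p = 0.121), and without replicate 2 the values were -0.24 in LSK and 0.01 in MEP.

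Foxo3, the transcription factor of the set (chr10:42181841-42276755, minus strand), was at 24.8 to 32.2 FPKM in WT LSK, 24.7 and 22.3 in Bcor-/- mice, and 18.4 and 26.6 in the double knockout. In MEP it was at 16.2 to 17.2 FPKM in WT, 19.9 and 21.2 in Bcor-/- mice, and 14.3 and 59.6 in the double knockout. The double knockout libraries overlapped WT in LSK and lay on either side of it in MEP. Foxo3 was not called in any comparison of genotypes within a cell type, with log2 fold changes in the double knockout of -0.34 ± 0.20 in LSK (adjusted p = 0.232) and 0.78 ± 0.46 in MEP (adjusted p = 0.222), the latter -0.22 without replicate 2.

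**Figure D2:**
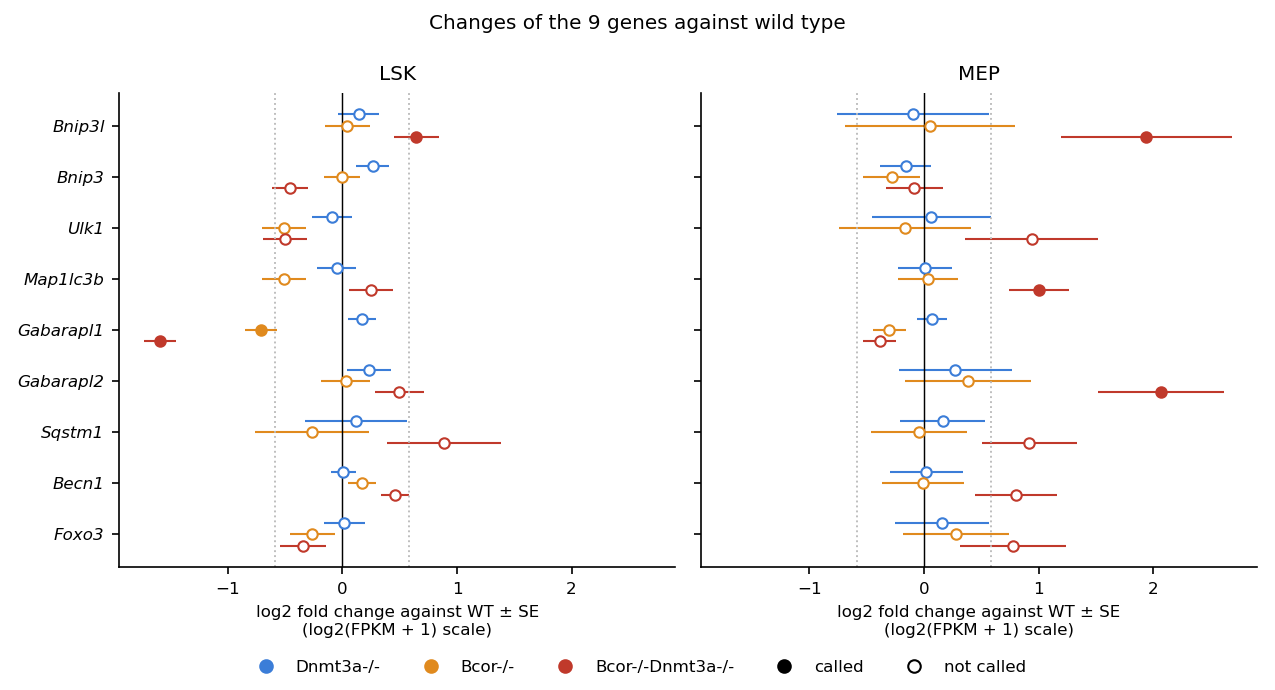
Log2 fold change (log2(FPKM + 1) scale) of each member against WT in the 3 mutant genotypes, in LSK and MEP, with bars for the standard error, filled symbols for calls and dotted lines at 1.5-fold. Gabarapl1 is filled on the lower side in Bcor-/- and double knockout LSK (-0.71 and -1.59), Bnip3l on the higher side in both compartments of the double knockout (0.64 and 1.94), and Map1lc3b and Gabarapl2 in its MEP (1.01 and 2.07).

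Over the set, 2 of the 9 members were called in double knockout LSK (Bnip3l higher and Gabarapl1 lower) where 28.3% of all tested genes were called, and 3 in double knockout MEP (Bnip3l, Map1lc3b and Gabarapl2, all higher) where 30.9% were. These shares of calls in either direction are near the background. By direction, 18.5% of all tested genes were called higher in MEP, and 15.0% higher and 13.3% lower in LSK. The median log2 fold change of the members was 0.25 in LSK against 0.02 for all tested genes, and 0.92 in MEP against 0.02. Both medians rested on replicate 2: without it they were -0.24 in LSK and 0.03 in MEP, and without replicate 1 they were 0.64 and 1.77. The members called were then 3 in LSK and 2 in MEP without replicate 2, where 32.0% and 35.5% of all genes were called, and 6 and 7 without replicate 1, where 39.5% and 41.8% were. In Bcor-/- LSK, 1 of 9 was called (Gabarapl1, lower) against a background of 13.2%, and 6.03% for lower genes. None was called in Bcor-/- MEP (background 2.76%), in Dnmt3a-/- LSK (0.443%) or in Dnmt3a-/- MEP (0.412%), and in these 3 comparisons 0 members had an unadjusted p under 0.05 by limma. The standard errors of the members in MEP, which the genotypes share, reached 0.74 for Bnip3l, so that a change of the size seen for Gabarapl1 in Bcor-/- LSK would not have been detectable for that gene.

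Against the single knockouts, the double knockout gave 3 calls versus Bcor-/- in LSK (background 30.6%), namely Bnip3l (0.60 ± 0.22, adjusted p = 0.0645), Map1lc3b (0.76 ± 0.21, adjusted p = 0.0253) and Gabarapl1. Versus Dnmt3a-/- in LSK it gave 2 (background 29.8%), Bnip3 and Gabarapl1, the latter lower by 1.76 ± 0.14 on the log2 scale (value -1.76, adjusted p = 5.66e-05). In MEP the same 3 members as against WT were called versus Bcor-/- (background 27.9%) and versus Dnmt3a-/- (background 34.7%). Their log2 fold changes versus Bcor-/- were 1.89 ± 0.81 for Bnip3l (adjusted p = 0.121), 0.97 ± 0.29 for Map1lc3b (adjusted p = 0.0399) and 1.69 ± 0.60 for Gabarapl2 (adjusted p = 0.0728). Without double knockout replicate 2 the calls of Bnip3l and Map1lc3b ended against Bcor-/- in LSK (0.23 and 0.37) and in MEP (0.23 and 0.42) and against Dnmt3a-/- in MEP (0.37 and 0.45), and that of Gabarapl2 ended against Bcor-/- in MEP (0.48) but not against Dnmt3a-/- (0.59). These comparisons share the double knockout libraries and are not independent of those with WT.

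The double knockout effect was then compared between the compartments from the LSK minus MEP difference within each of the 10 mice. It was lower in LSK than in MEP for all 9 members, though the sign turned for Becn1 without double knockout replicate 2 (0.26) and for Bnip3 and Sqstm1 without replicate 1 (0.14 and 0.18), and for Sqstm1 also without WT replicate 1 (0.020), and 6 were called, where 28.0% of 10773 genes were (18.6% by the adjusted p). The difference was -1.57 ± 0.45 for Gabarapl2 (adjusted p = 0.0385), -1.20 ± 0.20 for Gabarapl1 (adjusted p = 0.00827) and -0.75 ± 0.16 for Map1lc3b (adjusted p = 0.0168). These 3, all of the ATG8 family, also passed with the adjusted p. Ulk1 (-1.44 ± 0.45, adjusted p = 0.0504), Bnip3l (-1.30 ± 0.56, adjusted p = 0.122) and Foxo3 (-1.12 ± 0.36, adjusted p = 0.0551) passed with the unadjusted p alone. Bnip3, Becn1 and Sqstm1 were not called, and Sqstm1 differed least, by -0.03 ± 0.17.

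Several of these differences rested on the second double knockout mouse. Without it the difference was -0.004 for Bnip3l, -0.46 for Ulk1 and -0.38 for Foxo3, none of them called, and -0.98 for Gabarapl1, -0.62 for Gabarapl2 and -0.59 for Map1lc3b. The Bnip3l call ended under 13 of 17 alternatives. The Foxo3 call also ended in an unpaired fit. For the Bcor-/- effect 0 members were called (background 10.8%), although Map1lc3b had -0.54 ± 0.16 (adjusted p = 0.143) and was the 1 member with an unadjusted p under 0.05, and for Dnmt3a-/- 0 were called (background 0.873%).

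**Figure D3:**
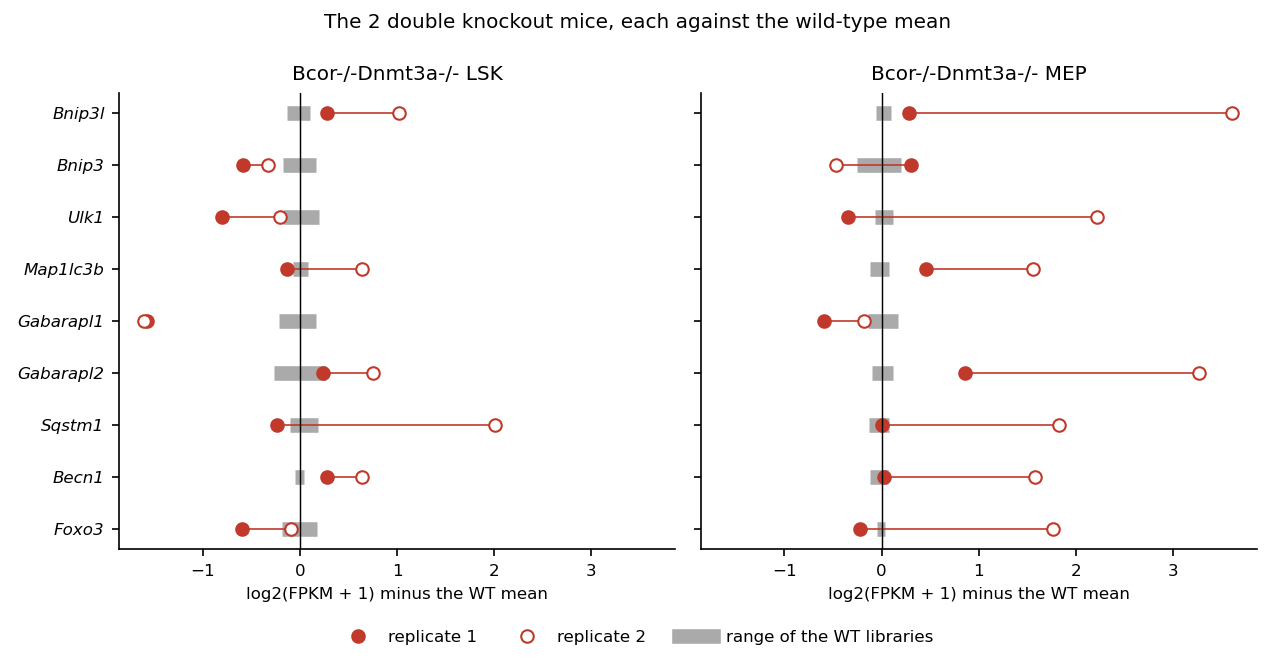
Log2(FPKM + 1) of each member in the double knockout mice minus the WT mean, replicate 1 filled and replicate 2 open, in LSK and MEP, with the range of the WT libraries as a grey bar. In MEP replicate 2 lies above the WT range for 7 members, whereas Bnip3 (2.95 FPKM) and Gabarapl1 (66.7 FPKM) lie below it.

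The sum of red cell genes moved with this split, though not every gene did. The summed FPKM of 17 erythroid marker genes was 596 to 777 in WT LSK, 641 to 732 in Dnmt3a-/- mice, 718 to 869 in Bcor-/- mice, and 7170.0 and 24785 in double knockout LSK replicates 1 and 2. Globin genes held much of the difference between these LSK replicates. Hba-a1 was at 1810 and 6837 FPKM, Hbb-b1 at 2825 and 12338, and Hbb-b2 at 970 and 3371. Klf1 (52.0 and 35.3), Epor (26.5 and 17.4) and Car2 (608 and 537) were lower in replicate 2, and Gata1 was at 44.1 and 43.5. In MEP the sum was 2583 to 3874 in WT, 2986 to 3794 in Dnmt3a-/- mice and 3273 to 3413 in Bcor-/- mice. The double knockout MEP libraries were at 5433 and 102626. In the library with the highest sum, double knockout MEP replicate 2, 7 members were at their highest of the 10 MEP libraries, and Bnip3 and Gabarapl1 were below the WT MEP range. In that library Hbb-b1, a beta globin gene, is listed at 0, beside 55204 FPKM for Hba-a1 and 30050 for Hbb-b2, so its sum lacks that gene. Without Hbb-b1 the MEP sum was 2475 to 3610 in WT and 3579 in double knockout replicate 1, inside the WT range. Alas2, which makes heme in erythroid cells, was at 4.45 to 15.2 FPKM in WT MEP and at 88.3 and 4392 in the double knockout, and Slc4a1, the band 3 membrane protein, at 11.7 to 32.7 and at 123 and 3195. Other markers differed in direction in replicate 1, where 7 of the 16 tested were below the WT range and 6 above it. Among those below, the erythroid transcription factor Gata1 was at 71.4 and 239 FPKM in the double knockout against 170 to 225 in WT, and Klf1 at 70.9 and 219 against 144 to 192. Of 16 erythroid markers tested, 15 were called higher and 1 lower in double knockout LSK, 7 were called higher in double knockout MEP, and 6 were called higher in Bcor-/- LSK, where the backgrounds were 15.0%, 13.3%, 18.5% and 7.20%.

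Markers of other cells differed in some lists and compartments and not in others. Backgrounds of called genes were 15.0% higher and 13.3% lower in double knockout LSK, and 18.5% and 12.4% in its MEP. Granulocyte and monocyte markers (15 genes) summed to 7204 and 16826 FPKM in double knockout MEP against 333 to 825 in WT MEP. In Bcor-/- LSK they summed to 19231 and 27441 against 3765 to 14264 in WT LSK. Double knockout LSK, at 8953 and 9848, was inside that WT range. Of the 15, 11 were called higher in double knockout MEP and 6 in Bcor-/- LSK (background 7.20%). In double knockout LSK 3 were called higher, 0 by the adjusted p. Macrophage markers (8 genes) were at 1543 and 49.5 FPKM in double knockout LSK (WT 38.7 to 309). In its MEP they were at 818 and 8.82 (WT 3.07 to 4.25). Of these, 0 of 8 were called in LSK and 5 of 7 higher in MEP (1 by the adjusted p). Lymphoid markers (11 genes) were at 2332 and 1574 in LSK (WT 468 to 651) and 1814 and 249 in MEP (WT 151 to 205). Of these, 8 of 11 were called higher and 2 lower in LSK, and 6 of 9 higher and 1 lower in MEP. Dntt was at 2.58 and 75.5 FPKM in double knockout LSK against 220 to 333 in WT. Vpreb1 split between the replicates, at 878 and 1.88 in LSK and 793 and 0.627 in MEP. Megakaryocyte markers (9 genes) were at 16.5 and 66.0 in LSK (WT 163 to 202) and 20.9 and 79.7 in MEP (WT 92.3 to 355). Of these, 5 were called lower in LSK and 3 in MEP. The macrophage sum was thus far higher in the first double knockout mouse than in the second. The erythroid sum in LSK was above the WT range in both and higher in the second, largely through globin genes. Klf1, Epor and Car2 were lower in the second. The part of all these markers in the members' values was not tested, and in bulk RNA fewer cells of a type and less RNA per cell cannot be told apart.

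**Figure D4:**
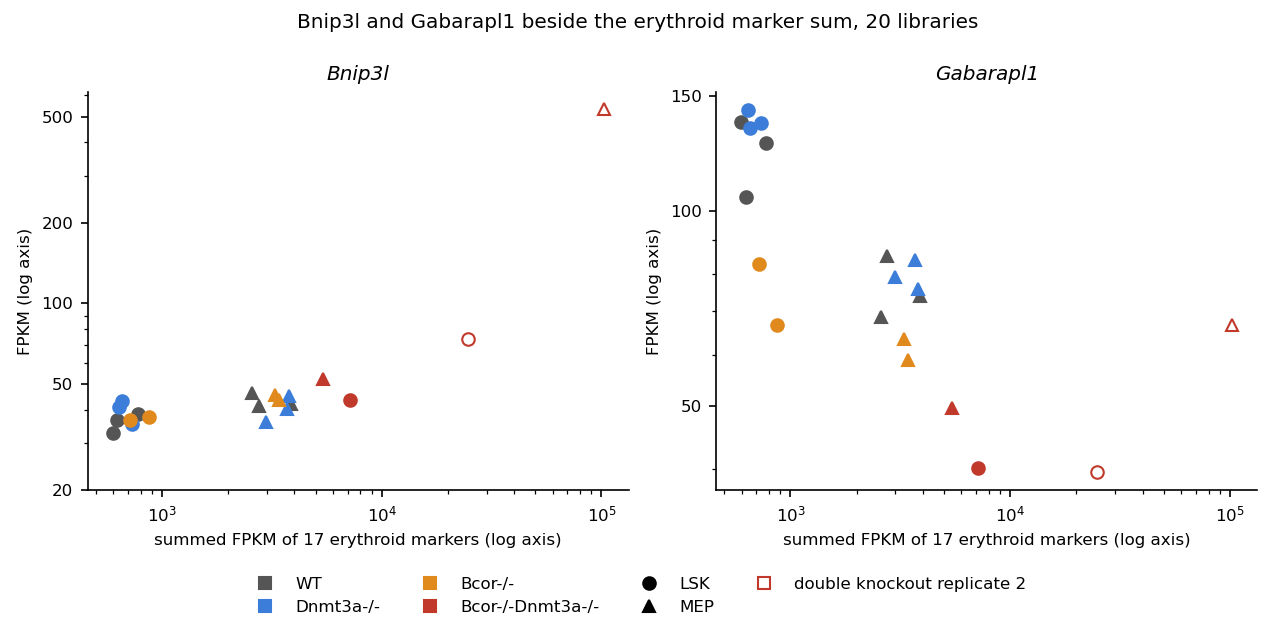
FPKM of Bnip3l and of Gabarapl1 against the summed FPKM of 17 erythroid markers in each of 20 libraries, both axes logarithmic, with circles for LSK, triangles for MEP, colours for genotype and open symbols for double knockout replicate 2. Double knockout MEP replicate 2 (102626) stands alone at the right with the highest Bnip3l (536), while Gabarapl1 is not higher there (66.7).

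The genes most like 2 of the members were sought among 10772 others, by Pearson's r of log2(FPKM + 1) over the 20 libraries after centring each cell type. For Bnip3l they were Nt5c3 (r = 0.988), Ccdc71l (0.988), Riok3 (0.985), Map4k5 (0.983) and Dcaf12 (0.982), and over the 16 libraries without the double knockout the same r values were 0.752, 0.878, 0.661, 0.628 and 0.767. For Foxo3 they were Micall2 (0.945), Pdzk1ip1 (0.931), Fam117a (0.925), Ulk1 (0.921), itself a member, and Wbp2 (0.908), and without the double knockout 0.810, 0.732, 0.667, 0.569 and 0.548. The points share mice and genotypes, and a single library, double knockout MEP replicate 2, weighs on each r: without it the r of the 5 genes was 0.875 to 0.911 for Bnip3l and 0.690 to 0.807 for Foxo3.

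The rest of the pathway was described through lists of 62 other autophagy, mitophagy and lysosome genes. All gene lists used here, like the members, were chosen with earlier results of these data known. The backgrounds given here for the double knockout also apply to the count of each single list below. In double knockout LSK, 13 of 61 tested were called higher and 3 lower, with backgrounds of 15.0% and 13.3%, and in double knockout MEP 17 of 60 were called higher and 2 lower, with backgrounds of 18.5% and 12.4%. Their median log2 fold change was 0.27 in LSK and 0.26 in MEP, each against 0.02 for all tested genes. In Bcor-/- 5 were called higher in LSK (background 7.20%) and 1 in MEP (background 1.23%), and in Dnmt3a-/- 0 in either, by the limma call at an unadjusted p. Without double knockout replicate 2 the counts were 16 higher and 5 lower in LSK and 14 and 6 in MEP, and without replicate 1 they were 20 and 2 in LSK and 23 and 2 in MEP.

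Among the early steps, Rb1cc1, which encodes the ULK1 partner FIP200, rose in double knockout MEP, from 6.37 to 8.54 FPKM in WT to 15.4 and 41.2 (1.59 ± 0.34, adjusted p = 0.00908; 0.90 without replicate 2), and was the 1 called gene of 5 in the initiation complex there, with none in LSK. In the Beclin 1 complex 3 of 8 rose in each compartment of the double knockout, with backgrounds of 15.0% higher in LSK and 18.5% in MEP. Uvrag, a Beclin 1 partner, went from 25.4 to 27.3 FPKM in WT LSK to 36.1 and 90.7 (1.08 ± 0.30, adjusted p = 0.0244), beside Pik3r4 (0.62) and the file's 1700021K19Rik (0.64), an older symbol of Rubcn, both with an adjusted p above 0.05. Without replicate 2 Uvrag was at 0.43 and 1700021K19Rik at 0.043, neither called, and without replicate 1 Pik3r4 was at 0.20 and not called. Of the ATG9, ATG2 and WIPI genes 2 of 8 rose in double knockout LSK, Atg9a (0.84 ± 0.14, adjusted p = 0.00257) and Wipi1 (0.76 ± 0.15, adjusted p = 0.00458), and in MEP 1 rose and 1 fell.

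In the conjugation machinery, which joins ATG8 proteins to lipid and releases them, 3 of 11 rose and 1 fell in double knockout LSK (backgrounds 15.0% and 13.3%). The ATG4 proteases that were called went in opposite directions. Atg4d rose from 9.25 to 10.1 FPKM in WT to 20.8 and 30.1 (1.30 ± 0.21, adjusted p = 0.00172) and Atg4a from 3.68 to 4.53 to 7.95 and 13.6 (1.18 ± 0.23, adjusted p = 0.00517), whereas Atg4c fell from 7.05 to 7.78 to 2.27 and 2.5 (log2 fold change -1.33 ± 0.14, adjusted p = 0.000227). Atg16l2 rose as well (1.18 ± 0.21, adjusted p = 0.00286). In MEP 3 rose (2 by the adjusted p), with a background of 18.5% by the unadjusted p. Of the ATG8 family, the member Gabarapl1 was the 1 call among 5 in double knockout LSK, and in MEP Gabarap, which is not a member, was called beside Map1lc3b and Gabarapl2, at 188 and 244 FPKM against 124 to 138 in WT (log2 fold change 0.70 ± 0.12, adjusted p = 0.00369), but not without replicate 2 (0.52).

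Among receptors, Optn, which encodes optineurin, rose in double knockout LSK from 5.02 to 7.31 FPKM in WT to 15.5 and 19.0 (1.33 ± 0.18, adjusted p = 0.000704) and was the 1 call of 7 selective receptors there, against 3 higher in MEP. The mitophagy receptor Fundc1 fell in double knockout LSK, from 24.5 to 25.3 FPKM to 16.5 and 14.0 (log2 fold change -0.68 ± 0.13, adjusted p = 0.00383). In LSK Fundc1 was at -0.57 without replicate 2, under the fold threshold. Of 6 mitophagy receptors, 1 rose (Bnip3l) and 1 fell (Fundc1) in LSK. In MEP 1 rose (Bnip3l) and 1 fell, there Phb2, at 196 and 217 FPKM against 322 to 442 in WT. Fundc1 did not fall in MEP, at 25.1 and 12.1 FPKM against 11.5 to 15.3 in WT. Of the PINK1 and parkin pathway, the route for damaged mitochondria, 0 of 7 were called in LSK and 2 rose in MEP. They were Pink1, from 28.2 to 38.3 FPKM to 47.8 and 101 (1.10 ± 0.29, adjusted p = 0.02), and the kinase Tbk1 (1.01 ± 0.18, adjusted p = 0.00428), of which Pink1 was at 0.57 and not called without replicate 2.

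In the lysosome and fusion list 4 of 12 rose and 1 fell in double knockout LSK (backgrounds 15.0% and 13.3%). In MEP 3 of 11 rose (background 18.5%). Tfeb, a transcription factor of lysosome genes, rose in LSK from 5.90 to 7.81 FPKM to 18.0 and 21.4 (1.37 ± 0.22, adjusted p = 0.002), with the proteases Ctsl (2.05 ± 0.48, adjusted p = 0.0125) and Ctsb (1.71 ± 0.26, adjusted p = 0.00154) and the fusion gene Snap29 (1.11 ± 0.18, adjusted p = 0.00185). Ctsl was at 42.3 and 194 FPKM in double knockout LSK replicates 1 and 2. Its log2 fold change was 0.97 without replicate 2 and 3.13 without replicate 1. Ctsb was at 246 and 207 FPKM, with 1.83 and 1.58.

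**Figure D5:**
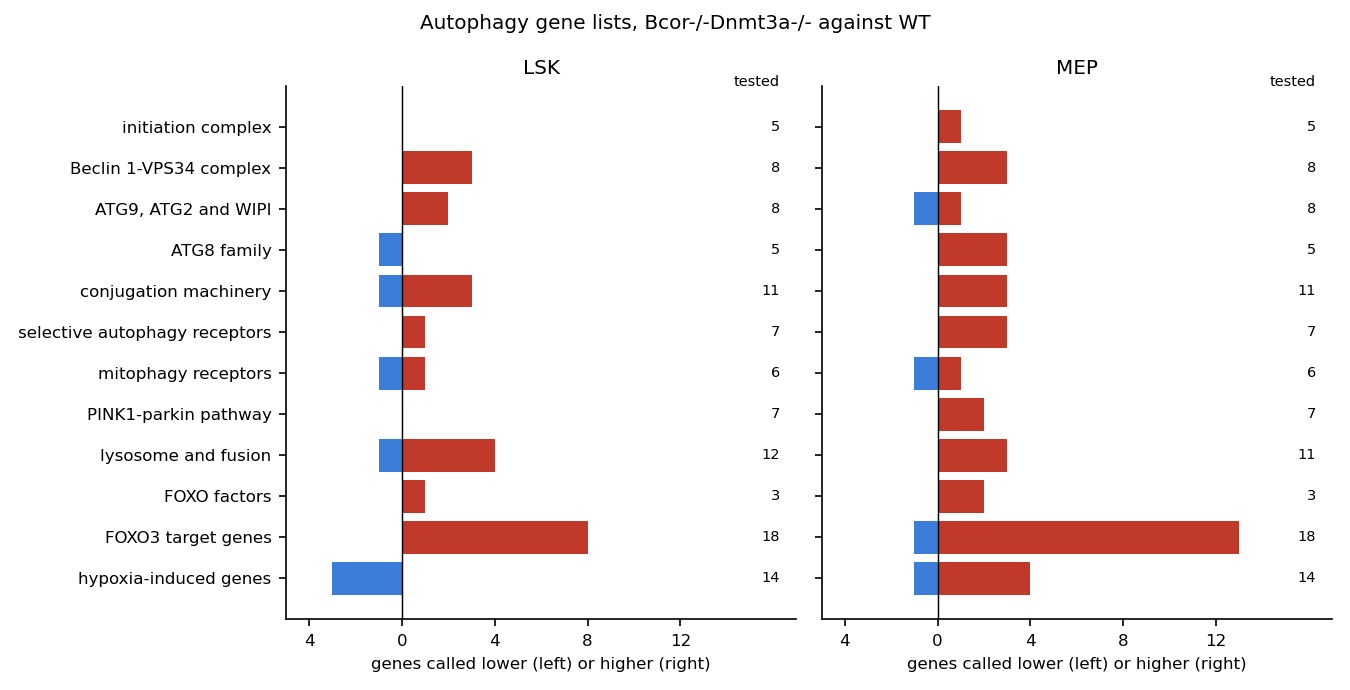
Number of genes called higher (red, to the right) and lower (blue, to the left) in the double knockout against WT in each pathway list, in LSK and MEP, with the number tested at the right edge. FOXO3 target genes, the longest of these lists with 18 tested, have the most calls among them, 8 higher in LSK and 13 higher in MEP.

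Foxo1 and several listed targets of FOXO3 were called where Foxo3 was not. Foxo1, a related factor, rose in double knockout LSK from 4.49 to 5.04 FPKM in WT to 45.8 and 36.5 (2.86 ± 0.18, adjusted p = 3.52e-05) and was called lower in Bcor-/- LSK (-0.62 ± 0.18, adjusted p = 0.0694). The latter call ended without Bcor-/- replicate 2 (-0.39), and the value was -0.85 without Bcor-/- replicate 1. In double knockout MEP, of 3 FOXO factors tested, Foxo1 and Foxo4 were called higher (1 by the adjusted p) and Foxo3 was not. Foxo1 was at 30.1 and 5.90 FPKM there against 2.45 to 3.08 in WT MEP, and so higher in replicate 1. Foxo4 was at 18.3 and 60.4 against 13.6 to 15.7, and so higher in replicate 2. Of 18 genes listed as FOXO3 targets, 8 rose and 0 fell in double knockout LSK, with a median of 0.44, and 13 rose and 1 fell in MEP, with a median of 1.24. The medians of all tested genes were 0.02 in both, and the backgrounds were 15.0% higher and 13.3% lower in LSK and 18.5% and 12.4% in MEP. The largest in LSK were Btg1, an antiproliferative gene, from 29.5 to 34.3 FPKM to 84.0 and 267 (2.18 ± 0.37, adjusted p = 0.00255), Irs2 (1.91 ± 0.55, adjusted p = 0.0297), Tsc22d3 (1.86 ± 0.67, adjusted p = 0.0665) and Gadd45a (1.14 ± 0.41, adjusted p = 0.0667). These values were carried by replicate 2, with double knockout libraries at 11.7 and 61.3 FPKM for Irs2, 66.1 and 497 for Tsc22d3 and 18.5 and 63.8 for Gadd45a. Without it the log2 fold changes were 1.35 for Btg1, 0.76 for Irs2, 0.41 for Tsc22d3 and 0.28 for Gadd45a, and the last pair were not called. In Bcor-/- LSK the direction was mostly the other way, with 6 called lower and 1 higher (backgrounds 6.03% and 7.20%) and a median of -0.37, and in Bcor-/- MEP 1 was called higher (background 1.23%). Without replicate 2 the double knockout counts were 5 higher and 2 lower in LSK and 14 and 2 in MEP. The targets are shared with other FOXO factors, and this list does not tell them apart.

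The hypoxia-induced list, to which Bnip3 is related, had 3 of 14 genes lower and 0 higher in double knockout LSK by limma at an unadjusted p, where 13.3% and 15.0% of all genes were. Without replicate 1 the counts were 4 lower and 3 higher, and without replicate 2 they were 4 and 1. Ndrg1 fell from 93.2 to 103 FPKM in WT to 11.7 and 21.7 (log2 fold change -2.52 ± 0.23, adjusted p = 0.000121), with Egln3 (-2.51 ± 0.41, adjusted p = 0.00199) and Pgk1 (-0.76 ± 0.17, adjusted p = 0.00991). Egln3 was -1.62 without replicate 1 and -3.40 without replicate 2. In double knockout MEP 4 were called higher and 1 lower (backgrounds 18.5% and 12.4%), in Bcor-/- LSK 1 higher and 2 lower (7.20% and 6.03%), and in Bcor-/- MEP 3 higher and 1 lower (1.23% and 1.53%).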

How the data were processed

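Bone marrow LSK and MEP cells were sorted by the study, and polyA RNA was sequenced. The deposited values are FPKM per gene, 1 table per cell type. Per the submitters' processing notes the authors used STAR 2.5.1b, SAMtools 1.9, Cufflinks 2.2.1 and mm9. FPKM from Cufflinks divides estimated fragments by transcript length and library size, and summed FPKM differed between libraries; strandedness is not given in the sources used here. No other sample columns were left unused (0).

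Here, genes whose FPKM averaged 1 or more across the 10 libraries of each compartment were kept, and log2(FPKM + 1) was fitted in limma 3.58.1 (R 4.3.3) with a mean-variance trend and 1 mean per genotype, and p-values were adjusted by Benjamini-Hochberg over all tested genes. Calls use the study's filter (unadjusted p under 0.05, fold above 1.5). The LSK minus MEP difference of each mouse was fitted likewise, because the labels name the same mice in both cell types; same-mouse deviations correlated at 0.00065 to 0.559. Exact permutation tests were not used because 2 against 3 mice cannot go below p = 0.1. The fit was tested on simulated data, but no outcome is given here and no result rests on it.

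Named genes are the 9 members and the targeted genes. From each pathway list up to 4 called genes with the largest change in double knockout LSK (MEP where none) are named. Also named are genes of the marker lists, the 5 nearest genes of Bnip3l and Foxo3, and genes overlapping a member. Some marker genes were named because they go against their list or differ between replicates. Gabarap, Foxo4 and Phb2 were named after their values were seen, and Kit and Ly6a as gate genes. The members and lists were chosen with earlier results of these data known. Gene positions are from GENCODE on GRCm38 and are not those of the files' build. Alternatives were pseudocount 0.1, no filter or a minimum mean of 5 FPKM, quantile normalization, a replicate block, adjusted p, 1 variance per genotype and leaving out each library. Figures were drawn with matplotlib 3.10.9.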

Additional observations from a re-analysis of the deposited data

Results flagged for a closer look

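The double knockout effect differed between LSK and MEP for 6 members, by a limma test of the LSK minus MEP difference within mice (log2, unadjusted p under 0.05 and above 1.5-fold), where 28.0% of all genes were called and 18.6% by the adjusted p. The differences were -1.30 for Bnip3l (adjusted p = 0.122), -1.44 for Ulk1 (adjusted p = 0.0504), -0.75 for Map1lc3b (adjusted p = 0.0168), -1.20 for Gabarapl1 (adjusted p = 0.00827), -1.57 for Gabarapl2 (adjusted p = 0.0385) and -1.12 for Foxo3 (adjusted p = 0.0551). For Gabarapl1 the effect was negative in both compartments (-1.59 in LSK and -0.39 in MEP), for Bnip3l, Map1lc3b and Gabarapl2 it was positive in both, and for Ulk1 and Foxo3 it was negative in LSK and positive in MEP. Without double knockout replicate 2 the Ulk1 and Foxo3 effects in MEP were -0.34 and -0.22, and the difference was -0.004 for Bnip3l, -0.46 for Ulk1 and -0.38 for Foxo3, none called. The second double knockout mouse had the highest erythroid marker sum in MEP (102626 FPKM), and the part of erythroid RNA in these differences was not tested.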

How the results depend on the processing

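Of the member values reported, those called did not reverse under the alternatives tried. Under these, 1140 member values kept direction and side of the threshold, 55 lost a call, 23 gained one and 36 reversed. Leaving out 1 library at a time, the number of members called ran from 1 to 6 in double knockout against WT in LSK, 0 to 2 for Bcor-/- LSK, 1 to 5 against Bcor-/- and 2 to 6 against Dnmt3a-/- in LSK, 2 to 7 against WT, 0 to 7 against Bcor-/- and 2 to 7 against Dnmt3a-/- in MEP, 4 to 7 for the LSK minus MEP difference of the double knockout and 0 to 2 for that of Bcor-/-. Quantile normalization gave 5 in double knockout MEP against WT, 2 in Bcor-/- LSK and 1 for the Bcor-/- difference; it moved the median of all genes in the double knockout to -0.10 in LSK and -0.18 in MEP, and the share of calls that were higher from 53.0% to 42.3% and from 59.8% to 37.2%. With the adjusted p, 1 was called against Bcor-/- in MEP and 3 for the double knockout difference. With 1 variance per genotype, 5 were called in double knockout MEP against WT and 5 against Bcor-/-. With the replicate number as a block the counts were 3, 1, 0, 3 and 2 in LSK and 3, 0, 0, 3 and 3 in MEP; replicate numbers do not pair mice of different genotypes (r of -0.193 to 0.336).

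Values that changed sign did so near 0 or with 1 double knockout mouse left out. Leaving out 1 library, double knockout values against WT ran from -0.14 to 0.64 for Map1lc3b and -0.24 to 2.01 for Sqstm1 in LSK, and from -0.47 to 0.30 for Bnip3, -0.34 to 2.22 for Ulk1 and -0.22 to 1.77 for Foxo3 in MEP. The LSK minus MEP difference ran from -0.88 to 0.14 for Bnip3, -0.24 to 0.18 for Sqstm1 and -0.94 to 0.26 for Becn1. For Bcor-/- LSK the ranges were -0.0213 to 0.10 for Bnip3l, -0.15 to 0.14 for Bnip3 and -0.10 to 0.16 for Gabarapl2, and for Dnmt3a-/- LSK -0.18 to 0.0054 for Ulk1, -0.025 to 0.057 for Becn1 and -0.12 to 0.15 for Foxo3. For Bcor-/- MEP they were -0.031 to 0.10 for Map1lc3b, -0.11 to 0.0155 for Sqstm1 and -0.067 to 0.041 for Becn1, and for Dnmt3a-/- MEP -0.051 to 0.048 for Map1lc3b and -0.039 to 0.058 for Becn1. Quantile normalization gave -0.043 for Bnip3l and 0.027 for Bnip3 in Bcor-/- LSK and -0.030 for Map1lc3b and -0.027 for Becn1 in Dnmt3a-/- MEP, and the replicate block gave 0.040 for Bnip3 in Bcor-/- LSK. The counts for the other autophagy genes and FOXO3 targets without either double knockout library were added after seeing the data: 16 to 20 and 2 to 5 autophagy genes higher and lower in LSK, 14 to 23 and 2 to 6 in MEP, and 5 to 10 and 0 to 2 targets in LSK, 13 to 14 and 0 to 2 in MEP. Hypoxia-induced genes, treated likewise, were 1 to 3 higher and 4 lower in LSK and from 3 to 6 and 1 to 2 in MEP, and of 28 values of named list genes, 9 lost the call without 1 library and none reversed. Limits are 2 mice in 2 of the genotypes, unknown read depth, and marker genes of several cell types that moved with the double knockout.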
